A study of Rattus norvegicus with 48 samples.

Results

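The combination of ischemic preconditioning and postconditioning was examined in rat liver as a 2 by 2 factorial: for every gene the question was whether the difference made by preconditioning was the same with and without postconditioning. The members are the 40 arrays of the 4 ischemic groups, 10 in each, out of 48 arrays in the series; they were taken by the group name in the sample title, and no measured value entered the choice. All rats were male Wistar animals under Hypnorm and midazolam, 1 biopsy of the right liver lobe and 1 Affymetrix array per rat, and all 40 underwent 30 min of ischemia of the whole liver and 30 min of reperfusion. Those of the IRI group (animals 1 to 10) had this insult alone. Preconditioned rats (IPC, animals 11 to 20) first had 10 min of ischemia followed by 10 min of flow. Postconditioned rats (IPO, animals 21 to 30) had 3 rounds of 30 sec of flow and 30 sec of occlusion as reperfusion began, and rats of the combined group (IPC+IPO, animals 31 to 40) had both. The 8 sham rats (animals 41 to 48) had no ischemia; they are not in the contrast and are given as the background. The labels give no hour of biopsy and no array batch, and biopsies hold all liver cells, so fewer cells of a type and less RNA per cell cannot be told apart.

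Both interventions are brief, sublethal interruptions of blood flow that are known to limit the injury of a long ischemia. Preconditioning acts before the insult, through signals such as adenosine and nitric oxide and through kinases that prepare the cell. Postconditioning acts in the first moments of reperfusion, when oxygen returns and reactive oxygen species are formed. Because their signalling paths are thought to share parts, a combination could add up, add nothing, or oppose. On a log2 scale, 2 interventions that add up give an expected level of IPC plus IPO minus IRI in the combined group. The interaction given throughout is the measured IPC+IPO mean minus that additive expectation, which equals (IPC+IPO minus IPO) minus (IPC minus IRI). A negative interaction means that the combined group lay below the additive expectation, and a positive one that it lay above.

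No gene had an interaction past the threshold. Of 14506 genes, limma called 0 (0%) at an adjusted p under 0.05, and the smallest adjusted p was 0.166. At an unadjusted p under 0.05 there were 2942 genes (20.3%), 1516 with a negative value (10.5%) and 1426 with a positive one (9.83%). Leaving out IRI animal 7 lowered these 2942 genes to 1892, and leaving out IPC+IPO animal 38 gave 1941. An interaction joins 4 group means, and its median standard error was 0.168 against 0.119 for IPC minus IRI. The 95% interval of the interaction lay within 2-fold in either direction for 90.0% of genes and within 1.5-fold for 54.1%, so departures beyond 2-fold lay outside the interval of most genes. A value of 2-fold or more was seen in 70 genes, 56 of them negative and 14 positive. The count was not 0 under 2 other fits: with array weights limma called 189 genes, and without IRI animal 1 it called 8, Plin2, Dnajb4, Slc6a6, Gar1, Lsm12, Pinx1, Clpx and Ftsj3.

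The parts of the contrast differed in how many genes they called. IPO against IRI called 3307 genes (22.8%), 1797 higher (12.4%) and 1510 lower (10.4%) in IPO. IPC against IRI called 4 genes (0.0276%): Lsm12 and Plat were higher in IPC (0.0138%), and Apln and Or4c58 lower (0.0138%). Or4c58, an olfactory receptor gene, is outside the rule for named genes and is named because the count is small. IPC+IPO against IPO, IPC+IPO against IPC and IPC+IPO against IRI each called 0 genes in the same limma fit, with 482, 235 and 3118 genes at an unadjusted p under 0.05. A comparison with many calls beside one with none does not show that the differences differ; the test of that is the interaction itself.

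Across genes, the preconditioning difference measured without postconditioning ran against the one measured with it. Pearson r between IPC minus IRI and IPC+IPO minus IPO was -0.516 over 14506 genes, with a Spearman rho of -0.558, and these differences share no array. The median absolute difference was 0.143 without and 0.088 with postconditioning. For the postconditioning difference, IPO minus IRI against IPC+IPO minus IPC, Pearson r was 0.066 and rho 0.086, and the median absolute difference was 0.217 without and 0.064 with preconditioning. Genes are not independent replicates, and these values describe the gene cloud only. The first correlation was -0.081 with array spread as a covariate and 0.007 without the 3 arrays of lowest spread (IPC+IPO animals 37 and 38 and IRI animal 7), where the other became 0.579.

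**Figure D1:**
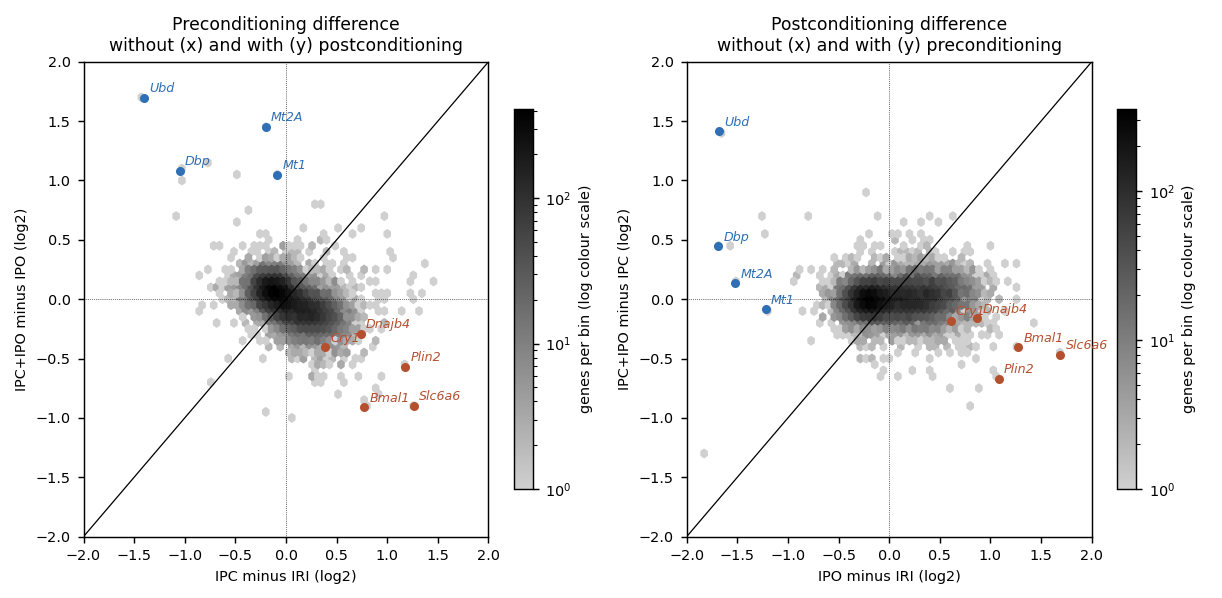
Each axis is a difference of group means in log2 units for 14506 genes, shown as grey hexagons whose darkness counts genes on a log scale; the left panel shows the preconditioning difference and the right panel the postconditioning difference, each without (x) and with (y) the other intervention. Genes with equal differences would lie on the solid diagonal; named genes with a negative interaction are red and those with a positive one blue. The left cloud tilts against the diagonal (r = -0.516) and the right cloud lies flat along the x axis (r = 0.066).

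Array spread, which is how far the log2 values of 1 array scatter around their mean (SD over its genes), moved with this contrast. It averaged 1.77 ± 0.111 (SD, n = 10) in IRI, 1.85 ± 0.0827 in IPC, 1.86 ± 0.153 in IPC+IPO and 1.91 ± 0.065 in IPO, an interaction of -0.133 (two-sided permutation p = 0.0512, 100000 permutations). Across genes the interaction followed the within-group slope of a gene on spread (Pearson r = -0.801, rho = -0.821). With genes split by level into 3 equal classes, the class of highest level had a median interaction of -0.28 and that of lowest level 0.19; with spread as a covariate these were -0.01 and 0.04. With that covariate 906 genes (6.25%) had an unadjusted p under 0.05 in place of 2942, 384 negative (2.65%) and 522 positive (3.6%), and 0 were called. Spread is computed from the same log2 values, so the smaller trend with level under the covariate was largely built in. The covariate can also take up change in the genes themselves. The part of spread in the values that follow was not tested, and values in parentheses after an interaction are those with the covariate.

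**Figure D2:**
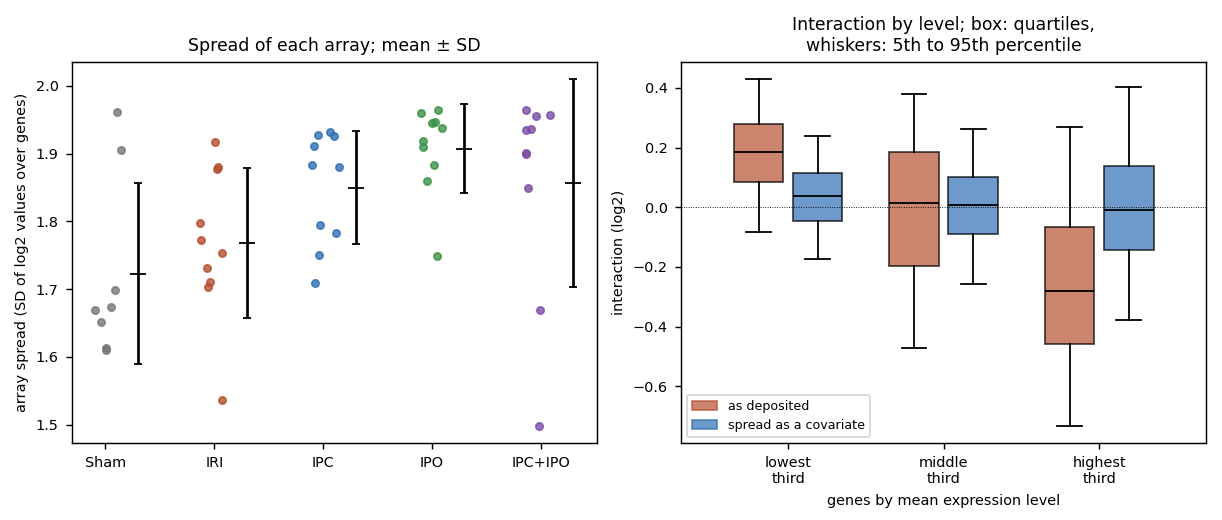
Left: spread of each of the 48 arrays (SD of log2 values over genes, no unit) by group, 1 point per animal, with mean and SD in black. Right: the interaction in log2 units for genes in 3 classes of mean level, as deposited (red) and with array spread as a covariate (blue); boxes are quartiles and whiskers run from the 5th to the 95th percentile. The red medians step down from 0.19 to -0.28 with level, and the blue medians stay between -0.01 and 0.04.

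The gene with the smallest p was Plin2 (probe set 10877907), which codes for perilipin 2, the main coat protein of lipid droplets in hepatocytes. Its log2 values ran from 6.63 to 9.49 with a median of 8.65 in IRI, from 8.68 to 10.27 with a median of 9.61 in IPC, and from 8.95 to 9.95 with a median of 9.45 in IPO. In IPC+IPO they ran from 7.85 to 9.82 with a median of 8.85, and in sham from 7.70 to 9.14 with a median of 8.42. Each intervention alone thus lay above IRI, with 7 IPC animals and 4 IPO animals above every IRI animal, while 6 IPC+IPO animals lay below every IPO animal. Plin2 and the other genes of smallest p were picked by this contrast. Such counts of animals describe the pattern that picked them and are not separate support. IPO minus IRI was 1.08 ± 0.25 (SE, adjusted p = 0.0114) and passed the test, as 12.4% of all genes did in that direction. IPC minus IRI was 1.18 ± 0.25 (adjusted p = 0.0556) and did not pass. The IPC+IPO mean of 8.89 lay 1.75 ± 0.36 below the additive expectation of 10.64, with a 95% interval from -2.47 to -1.03 (adjusted p = 0.166). With spread as a covariate the interaction was -1.41. That expectation exceeded the highest of all 48 values, 10.27.

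Expectations outside the measured range were not limited to Plin2. Over all genes the additive expectation lay above the highest of the 48 arrays for 918 genes (6.33%) and below the lowest for 601 (4.14%). For these genes the sum could be reached only by a group mean outside every value measured here.

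The 10 genes of smallest p with a negative interaction include chaperones and nucleolar proteins. None passed the threshold, and the values are given as such. Dnajb4 (probe set 10819787), a co-chaperone of Hsp70, ran from 5.16 to 6.83 in IRI (median 6.30), from 6.49 to 7.42 in IPC (median 7.19), from 6.64 to 7.55 in IPO (median 7.18) and from 6.41 to 7.61 in IPC+IPO (median 6.76). The sham range was 6.23 to 7.06 with a median of 6.61. IPC and IPO animals thus sat mostly above the IRI range, 6 and 8 of them above every IRI animal, against 3 of the combined group. Its interaction was -1.03 ± 0.22 (adjusted p = 0.166; -0.82 with the covariate). Clpx, a mitochondrial protein unfoldase, had an interaction of -1.26 ± 0.30 (-0.91), and Lsm12, an RNA binding protein, one of -0.52 ± 0.12 (-0.47). RT1-Bb, a class II histocompatibility gene, stood at -1.07 ± 0.25 (-0.86), and Tmprss2, a membrane serine protease, at -0.53 ± 0.13 (-0.50). Lsm12 came earlier out of IPC against IRI in these arrays, so its place here is not independent.

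**Figure D3:**
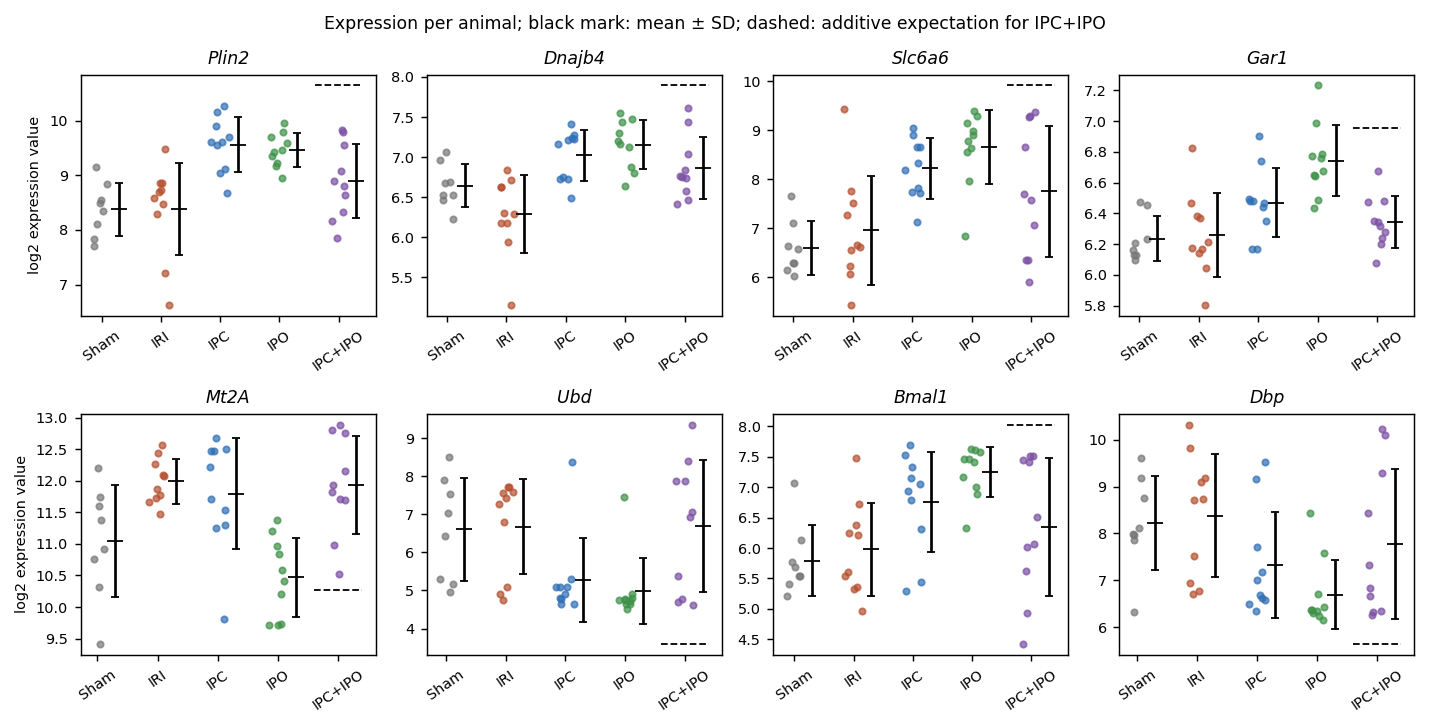
Log2 expression of 8 genes in every animal, by group on the x axis, with mean and SD in black and the additive expectation for IPC+IPO as a dashed line. In Plin2, Dnajb4, Slc6a6, Gar1 and Bmal1 the IPC+IPO mean lies below the dashed line, and in Mt2A, Ubd and Dbp above it; none of the 8 interactions passed the threshold.

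Factors of ribosome biogenesis, which cut and modify ribosomal RNA in the nucleolus, were the list with the lowest median interaction. Of 30 measured members, 0 were called, 23 (76.7%) had an unadjusted p under 0.05 with a negative interaction and none with a positive one, against 10.5% and 9.83% of all genes. The median was -0.58 against 0.03 over all genes, and 29 of the 30 lay below 0, against 47% of all genes. With the covariate the median was -0.23 and 8 members were negative at an unadjusted p under 0.05, all of them among the 23, against 2.65% of all genes. The members' median was 0.30 for IPC minus IRI, 0.44 for IPO minus IRI and 0.16 for IPC+IPO minus IRI.

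Gar1 (probe set 10826771), a protein of the H/ACA particles that guide pseudouridylation, had the smallest p of the list. It ran from 5.81 to 6.82 in IRI (median 6.19), from 6.17 to 6.90 in IPC (median 6.48) and from 6.44 to 7.23 in IPO (median 6.72). In IPC+IPO it ran from 6.08 to 6.68 (median 6.33) and in sham from 6.10 to 6.47 (median 6.19). Its IPO animals lay highest, and 7 of the combined group lay below all of them. The interaction was -0.61 ± 0.14 (adjusted p = 0.166; -0.54 with the covariate). Nop58, the core protein of the box C/D particles that guide ribose methylation, was at -1.08 ± 0.30 (-0.70). Pinx1, a nucleolar inhibitor of telomerase outside the list, was at -0.70 ± 0.16 (-0.51), and Ftsj3, a ribosomal RNA methyltransferase also outside it, at -0.76 ± 0.19 (-0.52). Nhp2, a partner of Gar1 in the same particles, was the single member above 0, at 0.12 ± 0.23 (0.28). The 70 measured cytosolic ribosomal proteins, the building blocks that these factors assemble, had a median of 0.12 (0.22 with the covariate), with 8 positive (11.4%) and 0 negative at an unadjusted p under 0.05. Their median level was 10.94. The class of highest level had 2.07% positive and 22.3% negative, and all genes 9.83% and 10.5%. With the covariate 7 were positive and 0 negative, against 3.6% and 2.65% of all genes.

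Heat shock chaperones, which refold damaged proteins, had a median of -0.42 over 22 measured members, of which 10 (45.5%) were negative and 0 positive at an unadjusted p under 0.05, against 10.5% and 9.83% of all genes. The list's median level was 7.66, and the class of highest level had 22.3% negative. With the covariate the median was -0.17 and 2 were negative, against 2.65% of all genes. Without the 3 arrays of lowest spread the median was -0.24 and 1 was negative. In that fit 843 of 14506 genes passed that p in either direction. Hspd1, the mitochondrial chaperonin, ran from 7.80 to 9.82 in IRI, 9.26 to 10.12 in IPC, 9.05 to 10.32 in IPC+IPO and 9.56 to 10.46 in IPO. Its interaction was -0.75 ± 0.27 (-0.29), and 7 IPC+IPO animals still lay above every IRI animal. Hspb1, a small heat shock protein, stood at -0.83 ± 0.49 (-0.37). Hsph1 and Dnajb1, partners of Hsp70, were at -0.51 ± 0.20 (-0.25) and -0.78 ± 0.35 (-0.43).

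Immediate-early genes, which code for transcription factors and decay factors induced within minutes of stress, had a median of -0.42 over 34 members (-0.31 with the covariate). Here 9 (26.5%) were negative and 1 (2.94%) was positive at an unadjusted p under 0.05, against 10.5% and 9.83% of all genes. The list's median level was 7.42, and its shares lay near the 22.3% and 2.07% of the class of highest level. With the covariate 5 were negative, against 2.65% of all genes. Without the 3 arrays of lowest spread 7 were negative, where 843 of 14506 genes passed that p in either direction. Jund, a subunit of AP-1, had medians of 7.24 in IRI, 8.23 in IPC, 8.04 in IPO, 8.07 in IPC+IPO and 6.73 in sham. The 3 conditioned groups lay close together, and the interaction was -1.02 ± 0.30 (-0.77). Ier5 was at -0.59 ± 0.21 (-0.58) and Egr1, a zinc finger factor, at -1.08 ± 0.50 (-0.96). Fosl1, another AP-1 subunit, was the positive member, at 0.47 ± 0.17 (0.22).

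Lists of lipid synthesis and glucose supply also had negative medians, and 0 of their members were called. The 25 measured genes of cholesterol and fatty acid synthesis had a median of -0.36 (-0.21 with the covariate). At an unadjusted p under 0.05, 10 (40%) were negative and 0 positive, against 10.5% and 9.83% of all genes. In the class of highest level these shares were 22.3% and 2.07%. With the covariate 4 were negative, against 2.65% of all genes, and 15 of 25 lay below 0. Scd, the desaturase that makes monounsaturated fatty acids, had medians of 9.60 in IRI, 10.53 in IPC, 11.07 in IPO, 10.71 in IPC+IPO and 9.86 in sham, and an interaction of -1.63 ± 0.53 (-1.17). Scd and the other genes that earlier work on these arrays picked in IPC or IPO against IRI share those arrays with the contrast, so their values here are not independent support. Fasn was at -1.17 ± 0.42 (-0.80) and Insig2, which retains the SREBP escort in the endoplasmic reticulum, at -1.09 ± 0.35 (-0.60). Among 20 genes of gluconeogenesis and insulin response, 7 (35%) were negative and 1 (5%) positive at an unadjusted p under 0.05, with a median of -0.31 (-0.08). Their median level was 8.70, and the class of highest level had 22.3% and 2.07%. With the covariate 3 were negative and 1 positive, against 2.65% and 3.6% of all genes, and 12 lay below 0. Without the 3 arrays of lowest spread, 4 synthesis genes and 2 of these 20 were negative. In that fit 843 of 14506 genes passed that p in either direction. G6pc1, the last enzyme of glucose release, was at -0.92 ± 0.28 (-0.59). Pdk4, a kinase that inhibits the pyruvate dehydrogenase complex, was at -1.40 ± 0.47 (-1.11).

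The counts of further lists at an unadjusted p under 0.05 are read against 10.5% negative and 9.83% positive among all genes. In the class of genes of highest level these shares were 22.3% and 2.07%. Proteasome and endoplasmic reticulum counts of negative members lay near 22.3%, at median levels of 9.21 and 8.64. Acute phase proteins, which the liver secretes in inflammation, had 9 of 24 members (37.5%) negative and 0 positive, with a median of -0.21 (-0.08 with the covariate). Its fibrinogen genes Fga and Fgb were at -0.40 ± 0.14 (-0.21) and -0.29 ± 0.10 (-0.17). Regulators of mRNA decay and RNA binding had 8 of 25 negative (32%) and a median of -0.12 (-0.05), with Hnrnpd at -0.79 ± 0.28 (-0.46). Proteasome subunits had 7 of 32 negative (21.9%) and 2 positive (6.25%), and their median went from -0.21 to 0.10 with the covariate. The positive share lay below the 9.83% of all genes and above the 2.07% of the class of highest level. Interferon-stimulated genes had 7 of 30 negative (23.3%) and a median of -0.32 (-0.07), with Ifi44l at -0.94 ± 0.31 (-0.60). Their median level of 6.37 lay between those of the middle class (5.87, 8.54% negative) and the highest class (7.70, 22.3% negative). Genes of the endoplasmic reticulum stress response had 7 of 29 negative (24.1%) and a median of -0.21 (-0.04), with its chaperone Hspa5 at -0.57 ± 0.21 (-0.36). With the covariate 2 acute phase, 2 mRNA decay and 2 interferon members were negative. So were 1 proteasome and 1 endoplasmic reticulum member, against 2.65% of all genes. Without the 3 arrays of lowest spread the negative members were 2 acute phase, 3 mRNA decay, 2 interferon, 2 endoplasmic reticulum and 0 proteasome. In that fit 843 of 14506 genes passed that p in either direction. Socs2, a feedback inhibitor of growth hormone signalling, was at -1.69 ± 0.61 (-1.11), and Hmox1, which degrades heme, at -0.83 ± 0.28 (-0.46). Cdkn1a, a cell cycle inhibitor, was at -0.99 ± 0.36 (-0.91). Hypoxia-inducible genes had a median of -0.03 with 2 of 26 negative (7.69%) and 1 positive (3.85%), both below the shares of all genes. Its mitophagy receptor Bnip3 was at 0.62 ± 0.25 (0.73). Complex I of the respiratory chain, at a median level of 9.57, had 4 of 34 positive (11.8%) and 0 negative. The class of highest level had 2.07% positive and 22.3% negative, and all genes 9.83% and 10.5%. With the covariate 4 were positive and 0 negative, against 3.6% and 2.65% of all genes. The median of complex I was 0.03 (0.25), and Ndufa2 was at 0.76 ± 0.28 (0.76).

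The metallothioneins Mt1 and Mt2A, small cysteine-rich proteins that bind zinc and copper, had positive interactions. Their promoters carry metal response elements, the sites read by the zinc sensor Mtf1, and are shown because both genes were lowest in IPO and not in the combined group. The 250 bases before each start site are given from RefSeq (GRCr8), Mt1 at chr19:10832976-10833225 and Mt2A at chr19:10838709-10838958, both on the minus strand, 5′ to 3′. Capitals mark matches to the element's core, TGCACNC or TGCGCNC, on either strand.
Mt1: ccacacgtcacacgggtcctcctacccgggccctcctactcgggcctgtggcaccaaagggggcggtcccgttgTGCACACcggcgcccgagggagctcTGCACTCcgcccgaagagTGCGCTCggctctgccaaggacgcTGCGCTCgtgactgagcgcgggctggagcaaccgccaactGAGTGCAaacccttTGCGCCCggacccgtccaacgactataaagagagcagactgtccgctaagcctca
Mt2A: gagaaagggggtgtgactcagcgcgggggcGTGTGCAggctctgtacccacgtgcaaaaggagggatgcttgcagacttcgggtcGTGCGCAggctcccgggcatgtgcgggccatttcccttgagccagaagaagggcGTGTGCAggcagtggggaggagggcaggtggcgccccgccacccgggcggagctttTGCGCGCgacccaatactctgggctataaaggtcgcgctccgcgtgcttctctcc
Mt1 held 6 matches and Mt2A 4, and 9 of the 10 genes of the zinc list with a window held at least 1, among them Mtf1 and Slc30a1 with 2 each. Of 33469 RefSeq promoter windows of this length, 20.6% held at least 1 match and 0.27% held 4 or more. A match is a description of the letters and was not tested for binding.

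Mt2A (probe set 10809399) ran from 11.47 to 12.56 in IRI (median 11.98), from 9.81 to 12.68 in IPC (median 11.96) and from 9.71 to 11.37 in IPO (median 10.50). In IPC+IPO it ran from 10.52 to 12.89 (median 11.88) and in sham from 9.41 to 12.20 (median 11.15). No IPO animal reached the lowest IRI animal, and 8 of the combined group lay above every IPO animal. IPO minus IRI was -1.52 ± 0.31 (adjusted p = 0.00819), a fall that passed the test, IPC minus IRI was -0.20 ± 0.31, and IPC+IPO minus IPO was 1.45 ± 0.31 (adjusted p = 0.229). The interaction was 1.65 ± 0.43, with a 95% interval from 0.78 to 2.53 (adjusted p = 0.181), and 1.85 with the covariate.

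In Mt1 (probe set 10796411) IPO was again the lowest group. It ran from 12.07 to 12.99 in IRI (median 12.29), from 11.35 to 12.98 in IPC (median 12.54), from 10.35 to 11.87 in IPO (median 11.31) and from 10.91 to 13.07 in IPC+IPO (median 12.24). The sham range was 10.43 to 12.59 with a median of 11.52. Each of the 10 IPO values was under the lowest IRI value, and 8 IPC+IPO values exceeded the highest IPO value. Its interaction was 1.14 ± 0.34 (adjusted p = 0.205; 1.32 with the covariate). The other probe set of each gene gave 1.13 for Mt1 and 1.99 for Mt2A. Metallothionein probes can pick up near-identical copies, so the genes are not fully separate measurements. These genes had been named in IPO against IRI before and are not independent of it.

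Of the 12 other measured members of the zinc list, 3 were negative and 1 positive at an unadjusted p under 0.05, and the median of all 14 was -0.25 (-0.03 with the covariate). The positive member was the metallothionein Mt3, at 0.35 ± 0.16 (0.26). Slc39a4, which carries zinc into the cell, was at -1.07 ± 0.28 (-0.64). Slc30a1, the zinc exporter that Mtf1 is known to induce, was at -0.25 ± 0.17 (-0.03), and Mtf1 itself at -0.12 ± 0.15 (-0.03).

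Ubd (probe set 10830854), the ubiquitin-like modifier FAT10 that marks proteins for the proteasome, had the interaction furthest from 0 among the named genes. Its values fell into 2 separate ranges over the 48 arrays, with no array between 5.37 and 6.42. The upper range held 7 of 10 IRI animals, 1 of 10 IPC animals, 1 of 10 IPO animals, 6 of 10 IPC+IPO animals and 5 of 8 sham animals. The gap was chosen after the values were seen. Medians were 7.34 in IRI, 4.99 in IPC, 4.76 in IPO, 6.99 in IPC+IPO and 6.74 in sham. The interaction was 3.10 ± 0.77 (adjusted p = 0.166), and 3.15 with the covariate. The additive expectation of 3.59 lay below the lowest value of any array, 4.52. The test treats the values of a group as scattered around 1 centre, and the SD was 1.25 in IRI and 1.72 in IPC+IPO.

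The other genes of smallest p with a positive interaction lay mostly in the dim part of the scale. Cox4i2, an isoform of a cytochrome oxidase subunit, had medians of 4.96 in IRI, 4.55 in IPC, 4.32 in IPO, 4.59 in IPC+IPO and 4.66 in sham, and an interaction of 0.67 ± 0.16 (0.52 with the covariate). Stc1, a secreted glycoprotein hormone, had medians of 4.17, 3.96, 3.89 and 4.17 in the same 4 ischemic groups and an interaction of 0.54 ± 0.13 (0.44). Slc2a4, the insulin-responsive glucose transporter of muscle and fat, was at 0.48 ± 0.12 (0.32). Gipc2, Dclre1b, Rxfp3, Tmc2, Brsk2 and Prss36 lay between 0.43 and 0.74 (0.33 to 0.49 with the covariate), all with an adjusted p from 0.166 to 0.172. Except for Dclre1b and Prss36 the ischemic group means of these 9 genes were at or below 5.21. In the class of genes of lowest level, 88.3% of values were above 0.

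Clock genes with an unadjusted p under 0.05 lay on both sides of 0, and the 2 arms below are named by that sign alone. Bmal1 and Clock form the activator of the circadian clock; it drives Per, Cry, Nr1d1, Nr1d2, Dbp and Tef through E-boxes, and Nr1d1 and Nr1d2 in turn repress Bmal1 through ROR elements. Of 16 measured members, 5 were negative (Bmal1, Nfil3, Clock, Npas2 and Cry1) and 6 positive (Dbp, Nr1d1, Per3, Tef, Nr1d2 and Usp2) at an unadjusted p under 0.05, or 31.2% and 37.5% against 10.5% and 9.83% of all genes. Cry1, a target of the activator, thus lay with Bmal1 and Clock and not with Dbp, Tef, Nr1d1 and Nr1d2. With the covariate 5 members were negative and 5 positive. Bmal1 and Tef promoters are shown as 1 gene of each arm that holds its motif, from RefSeq (GRCr8) on the plus strand, at chr1:176766078-176766327 and chr7:115206577-115206826. Capitals mark AGGTCA, the ROR element core, in Bmal1 and CACGTG, the E-box, in Tef.
Bmal1: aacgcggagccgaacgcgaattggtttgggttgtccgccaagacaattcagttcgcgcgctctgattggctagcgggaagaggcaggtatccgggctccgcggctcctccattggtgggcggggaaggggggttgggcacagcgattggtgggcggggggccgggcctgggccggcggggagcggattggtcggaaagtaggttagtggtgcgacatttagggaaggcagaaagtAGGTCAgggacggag
Tef: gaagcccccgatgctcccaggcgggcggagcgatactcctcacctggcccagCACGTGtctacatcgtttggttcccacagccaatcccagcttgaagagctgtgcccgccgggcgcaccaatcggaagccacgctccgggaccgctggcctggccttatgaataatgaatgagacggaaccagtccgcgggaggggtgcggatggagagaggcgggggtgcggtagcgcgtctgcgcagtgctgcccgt
Each window held 1 match, searched on both strands; AGGTCA was found in 14.1% and CACGTG in 5.6% of the 33469 windows. Of the 15 clock genes with a window, 4 held CACGTG (Bhlhe40, Bhlhe41, Nr1d1 and Tef) and 3 held AGGTCA (Bmal1, Nr1d2 and Usp2). Dbp and the Per genes held no CACGTG in these 250 bases, and AGGTCA was found in members of both arms. Cry1 had no window. Sites outside the windows and other forms of the motifs were not searched, so the letters cannot tell whether the arms differ in these elements.

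Bmal1 (probe set 10710028) ran from 4.96 to 7.47 in IRI (median 5.91), from 5.30 to 7.70 in IPC (median 6.998) and from 6.34 to 7.64 in IPO (median 7.44). In IPC+IPO it ran from 4.42 to 7.51 (median 6.29) and in sham from 5.21 to 7.08 (median 5.61). The combined group was the widest, with an SD of 1.13 against 0.41 in IPO, and 5 of its animals lay below every IPO animal. IPO minus IRI was 1.27 ± 0.33 (adjusted p = 0.0155), which passed the test, and the interaction was -1.68 ± 0.47, with a 95% interval from -2.63 to -0.73 (adjusted p = 0.204; -1.40 with the covariate). Clock was at -1.12 ± 0.35 (-0.63), Nfil3 at -1.20 ± 0.34 (-0.94), Npas2 at -0.84 ± 0.28 (-0.63) and Cry1 at -0.79 ± 0.19 (-0.76).

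Dbp (probe set 10706953), an output factor that binds D-boxes in metabolic genes, mirrored Bmal1. It ran from 6.71 to 10.32 in IRI (median 8.72), from 6.34 to 9.51 in IPC (median 6.85), from 6.16 to 8.43 in IPO (median 6.36) and from 6.25 to 10.22 in IPC+IPO (median 7.07). The sham range was 6.32 to 9.61 with a median of 8.05. In IPO, 8 animals lay below every IRI animal, and 3 IPC+IPO animals lay above every IPO animal. The interaction was 2.14 ± 0.71 (adjusted p = 0.205; 1.99 with the covariate). Tef was at 0.87 ± 0.24 (0.87), Nr1d1 at 1.13 ± 0.52 (1.31), Per3 at 0.94 ± 0.38 (0.96) and Per1 at 0.25 ± 0.35 (0.30).

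**Figure D4:**
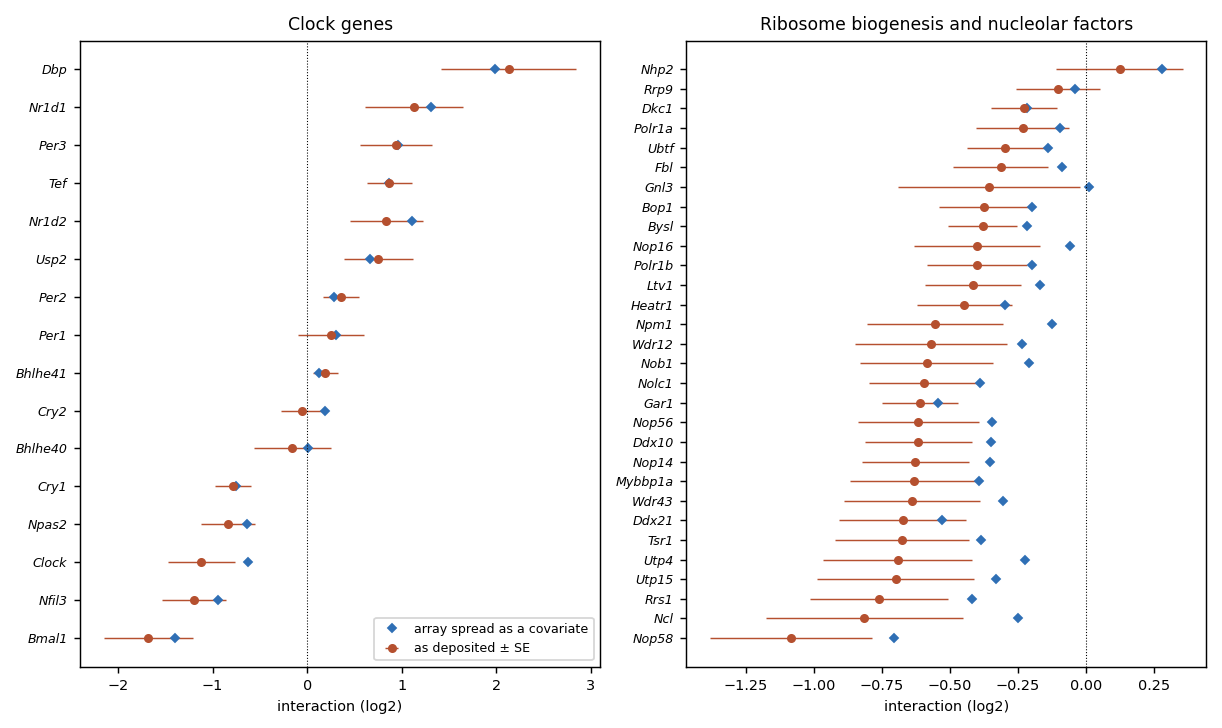
Interaction (log2, x axis) of each measured member of the clock list (left) and of the ribosome biogenesis list (right), as deposited with its SE (red) and with array spread as a covariate (blue). Clock members run from -1.68 (Bmal1) to 2.14 (Dbp) on both sides of 0, while 29 of 30 nucleolar members lie below 0.

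Several genes, in and outside the clock list, varied with Bmal1 from animal to animal inside the groups. Over deviations from the group mean in the 40 ischemic animals, Pearson r with Bmal1 was -0.896 for Dbp, -0.835 for Tef, 0.854 for Slc6a6, -0.808 for Hsd17b2, 0.601 for Plin2 and 0.566 for Cry1. Spearman rho was -0.889, -0.824, 0.862, -0.790, 0.619 and 0.552 in the same order. The permutation p for r was 1e-05 for Dbp, Tef, Slc6a6 and Hsd17b2, the smallest that 100000 permutations within groups can give (2.25e-05 adjusted over 9 relations), 0.00015 for Plin2 (0.00027 adjusted) and 0.00027 for Cry1 (0.000405 adjusted). The same adjusted values for rho were 2.25e-05 for the first 4 genes, 0.000234 for Plin2 and 0.000825 for Cry1. Without the 2 animals farthest from the median of Bmal1, r stayed between -0.875 and -0.770 for the 3 negative relations and at 0.851, 0.618 and 0.520 for Slc6a6, Plin2 and Cry1. Within single groups r had 1 sign in all 4 for each of these 6 genes except Plin2, which was at -0.110 in IPO and at 0.762 in IPC+IPO. Mt2A (r = -0.293, permutation p = 0.0988, 0.127 adjusted; rho = -0.216, permutation p = 0.202, 0.228 adjusted) and Ubd (r = 0.098, permutation p = 0.612; rho = -0.015, permutation p = 0.936) gave no relation past the threshold. Array spread itself gave r = 0.286 (permutation p = 0.14, 0.158 adjusted) and rho = 0.420 (permutation p = 0.0133, 0.017 adjusted), with r from 0.006 in IPC to 0.899 in IPO. The relations were chosen after the interactions were seen, and r with Bmal1 was not computed over all genes. Whether these genes stand out from the rest is thus not known.

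Slc6a6 (probe set 10857314), the taurine transporter, ran from 5.44 to 9.44 in IRI (median 6.65), from 7.13 to 9.05 in IPC (median 8.26) and from 6.85 to 9.38 in IPO (median 8.84). In IPC+IPO it ran from 5.91 to 9.37 (median 7.63) and in sham from 6.03 to 7.67 (median 6.44). All groups overlapped, and IRI animal 1, at 9.44, lay above every IPO and IPC animal. The interaction was -2.16 ± 0.56 (adjusted p = 0.170; -1.58 with the covariate). Hsd17b2, which inactivates estradiol and testosterone, was at 2.02 ± 0.55 (2.07), and Upp2, a liver uridine phosphorylase, at 1.96 ± 0.58 (1.91).

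Markers of cell types were read to check the liver label. The 18 measured hepatocyte markers were high in every biopsy, with a mean level per array from 11.25 to 12.01 in the combined group, 11.46 to 11.89 in IRI, 11.49 to 11.97 in IPC and 11.73 to 11.94 in IPO. Their median interaction was -0.10 (0.01 with the covariate). At an unadjusted p under 0.05, 4 (22.2%) were negative, against 10.5% of all genes and 22.3% of the class of highest level. For markers of Kupffer cells and other macrophages the median was -0.18 (0.06), with 2 of 17 negative (11.8%), near the 10.5% of all genes. Their mean level ran from 6.67 to 8.00 in IRI, 7.41 to 8.05 in IPC, 7.08 to 8.20 in IPC+IPO and 6.83 to 8.09 in IPO. Sinusoidal endothelial markers had a median of -0.09 (0.07) and 0 of 16 in either direction. Stellate and mesenchymal markers stood at -0.17 (-0.07), with 5 of 20 negative (25%) and 1 positive (5%).

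Markers of blood cells had positive medians. All 13 erythroid and platelet markers had a positive interaction, with a median of 0.30 (0.23 with the covariate) and 5 (38.5%) at an unadjusted p under 0.05, against 9.83% of all genes. With the covariate 2 were positive at that p, against 3.6% of all genes, and 2 markers lay below 0. Their mean level ran from 6.16 to 7.01 in IRI, 6.08 to 6.66 in IPC, 5.91 to 6.82 in IPC+IPO and 5.97 to 6.77 in IPO, so all groups overlapped. Hbb-b1, a beta globin, was at 0.83 ± 0.37 (0.76). Of 17 neutrophil markers 15 lay above 0, with a median of 0.26 (0.12). At an unadjusted p under 0.05, 5 (29.4%) were positive, against 9.83% of all genes, and 1 with the covariate. Their mean level stayed between 4.72 and 5.64 in the 40 arrays, and in the class of genes of lowest level 88.3% of values were above 0. Lymphocyte markers had a median of 0.19 (0.05). The part of blood content in the other interactions was not tested.

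**Figure D5:**
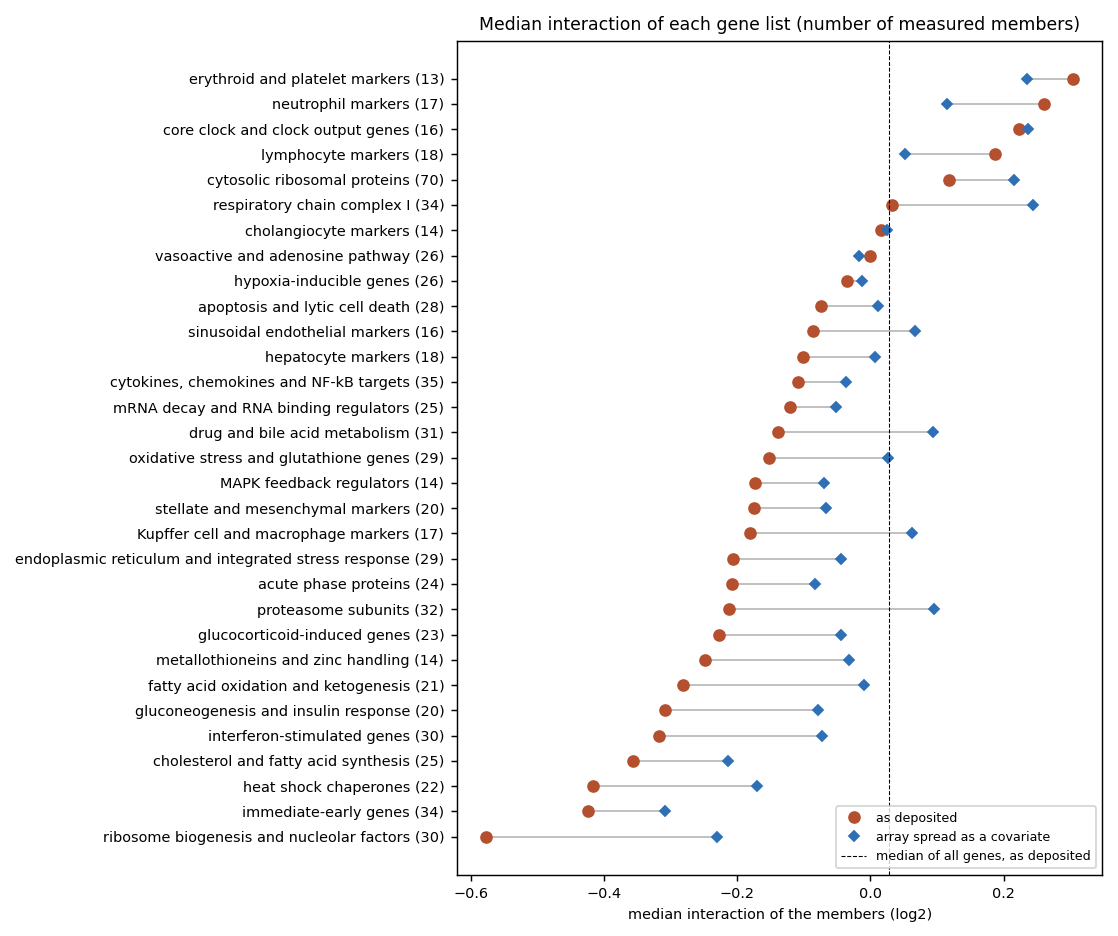
Median interaction (log2, x axis) of each of 31 gene lists, with the number of measured members, as deposited (red circles) and with array spread as a covariate (blue diamonds); the dashed line is the median of all genes, 0.03. Ribosome biogenesis lies lowest at -0.58, and most lists move toward 0 with the covariate.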

How the data were processed

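The authors deposited 1 log2 value for each probe set and array, made with RMA in Affymetrix Expression Console per the submitters' processing notes; RMA corrects background, normalizes probe quantiles and summarises probes. No version, scan or batch is given in the sources used here, and 0 values were missing. Of 29215 probe sets, 15310 had 1 gene symbol in the platform annotation, 323 several and 13582 none. The probe set with the highest mean was taken for each of 14506 genes.

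The 5 groups were taken from the sample titles and fitted together with limma 3.58.1 in R 4.3.3 (lmFit, contrasts.fit and eBayes, 43 residual degrees of freedom, two-sided, no covariate). P-values were adjusted with the Benjamini-Hochberg procedure over all genes at a threshold of 0.05. Errors after ± are SE for differences and SD for levels, and values in parentheses after an interaction come from the fit with array spread as a covariate. The number of arrays limits the precision. The pipeline was tested on simulated data.

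Named genes are the 10 of smallest p in each direction, since none passed (predicted loci, olfactory receptors and small RNA genes were skipped, 4 among the positive), the 2 members of smallest p of each of 31 gene lists, and 17 genes that earlier work on these arrays had named. Other members are given as values and were picked after their values were seen. The members and the lists were chosen with earlier results of these data known. Lists are described by counts and medians, without a set test.

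Alternatives were the 4 ischemic groups alone, a trended and robust variance, array weights, no dim genes (33.3% left out), the probe set of largest variance, all probe sets, centring, quantile normalization, array spread as a covariate, leaving out arrays of low spread, stricter thresholds and leaving out each array. Promoters came from RefSeq (GRCr8). Plots used matplotlib 3.10.9 under Python 3.11.15.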

Additional observations from a re-analysis of the deposited data

Results flagged for a closer look

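Single animals were compared with their group of 10 by Dixon's ratio, the gap of the outermost value to its neighbour over the range, for array spread and 34 named genes. In 140 groups tested 8 ratios passed its 95% critical value; chance flags about 1 in 20 groups. In Ubd, IPC animal 12 stood at 8.382 (ratio 0.824) and IPO animal 22 at 7.448 (0.87), each the single high animal of its group. IPC animal 12 was also the lowest IPC animal in Mt2A, at 9.806 (0.502). IRI animal 7, an array of low spread and of the lowest mean correlation with the other arrays (0.888), was lowest in Dnajb4 at 5.161 (0.47) and in Hspd1 at 7.802 (0.498). Stc1 was highest in IPC animal 11 at 4.366 (0.47), and Clock lowest in IPO animal 24 at 6.485. The array spread of IPO animal 30 was 1.749 (0.515), below the next IPO array at 1.86.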

How the results depend on the processing

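The count of genes called for the interaction was 0 in the fit reported and in 12 of 13 alternatives besides leaving out 1 array. The stricter thresholds among the 12 use the fit reported and could only give 0. With array weights, which ran from 0.0968 to 3.96, limma called 189 genes, 84 positive and 105 negative. Leaving out 1 array gave 0 to 8; the 8 came without IRI animal 1 (Clpx, Dnajb4, Ftsj3, Gar1, Lsm12, Pinx1, Plin2 and Slc6a6), and the cause was not tested. At an unadjusted p under 0.05 the count was 2942; it was 5239 over all probe sets, 3359 with array weights, 843 without the 3 arrays of lowest spread, an alternative chosen after seeing the data, and 502 without the 10 arrays of lowest spread, which left 5 IRI arrays. Without 1 array it ran from 1892 (without IRI animal 7) to 4006 (without IRI animal 1), and was 1941 without IPC+IPO animal 38. The correlation of the preconditioning difference without and with postconditioning was -0.516; it was -0.0812 with array weights, -0.0812 with spread as a covariate, 0.0543 without those 10 and 0.00691 without the 3 arrays, and -0.575 to -0.297 without 1 array. The correlation of the postconditioning difference ran from -0.097 to 0.434 without 1 array. The interaction of array spread was -0.363 as an interquartile range (permutation p = 0.0416). Of the values of named genes under the alternatives other than leaving out 1 array, 798 had the same direction and side of the threshold, 27 passed it, all with array weights, and 1 reversed: Eng, at 0.0771 without the 10 arrays of lowest spread. Without 1 array, 8 values passed it, all without IRI animal 1. Of list medians, 114 moved by less than the spread between animals and 10 by more. No paired analysis was possible because animal numbers differ between all groups.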
